A study of Mus musculus with 2 samples.

Results

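The 40 genes described here act in DNA replication and mitosis. They were chosen by name, with earlier results of these data known but by no measured value, 20 whose transcripts accumulate while DNA is copied (S phase) and 20 whose transcripts accumulate on the way into and through division (G2/M). All 40 were found among the 32285 genes of both deposited tables. Their unique molecular identifiers (UMIs), each of which marks 1 captured transcript, were added up over groups of cells and scaled to 1000000 UMIs of the group (CPM).

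A cell that commits to divide loads the MCM helicase onto its origins and then copies DNA behind a sliding clamp, while enzymes raise the supply of deoxynucleotides and histones. E2F factors drive many of these genes. Later the kinase Cdk1 and its cyclins start mitosis, condensin and topoisomerase fold the chromosomes, and kinetochores, the spindle and the chromosomal passenger complex part them. In the intestine these programs run in stem cells of the crypt base and in their transit-amplifying progeny, and maturing cells leave the cycle.

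The data were 2 single-cell RNA-seq libraries of sorted mouse intestinal epithelial cells. One came from MG53-TG mice, which overexpress MG53 globally, and the other from wild-type (WT) littermates. MG53, encoded by Trim72, is a muscle protein known for membrane repair. All mice had received 2.5% dextran sulfate sodium (DSS), which injures the gut lining, and were sampled on day 7, so there was no library without DSS. Crypts were dissociated, and EpCAM+ cells that excluded 7-AAD, a dye that enters dead cells, were sorted. The labels give neither the age nor the number of the mice. The experiment was described with an n of 5 per genotype, and how these relate to the 1 library of each genotype is not stated.

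As each genotype had 1 library, there was no replicate spread to compare a difference with, and no test between genotypes was possible. Pairs of values give WT first and MG53-TG second, and log2 ratios are of MG53-TG over WT. All intervals are 95%, cover counting error only and are exact unless stated. The program version and the barcode filter changed together with genotype, and their part in a difference cannot be told apart from it. The tables summed to 158455748 (WT) and 128227881 UMIs (MG53-TG). After filtering, 6963 and 4941 cells remained, of which 6120 and 4606 were epithelial with a median of 15665.5 and 18654.5 UMIs. Trim72 went with the labels, at 63 UMIs in WT epithelial cells (0.594 CPM) against 4569 in MG53-TG (50.8 CPM). T cells passed the EpCAM sort (577 and 229 cells in the T cell-like cluster) and were left out of epithelial sums. A share of 33.7% (WT) and 46.1% (MG53-TG) of otherwise passing barcodes exceeded the mitochondrial limit of 25%. The libraries shared 8 kept barcodes.

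Of the named types, stem-like cells held the most of the program. They were named from 15 markers such as Lgr5, Olfm4 and Ascl2 after clustering without cell cycle genes. There the S list summed to 1316 CPM in WT (interval 1297 to 1335) against 1559 CPM in MG53-TG (1532 to 1585). The G2/M list stood higher, with 3824 CPM (3791 to 3856) and 4015 CPM (3972 to 4057). Among 8 named epithelial types, each of the 40 members had its highest level in stem-like cells when the libraries were added, and so it was under all 8 other filters and clusterings tried.

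An unnamed cluster, cluster 2, held more of the 40 genes than stem-like cells in both libraries, 5585 and 5712 CPM against 5139 and 5573 CPM, from a lower S list and a higher G2/M list. It was led by Rrm2, Asf1b, Pclaf and Birc5, so division genes are among the genes that define it although they were kept out of the clustering. Its S list had 1049.9 CPM (1031 to 1069) and 1255 CPM (1226 to 1285). Its G2/M list had 4535 CPM (4496 to 4575) and 4457 CPM (4402 to 4513). Stem markers were low there, with Olfm4 at 129 and 223 CPM, compared with 2221 and 3199.7 CPM in stem-like cells.

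**Figure D1:**
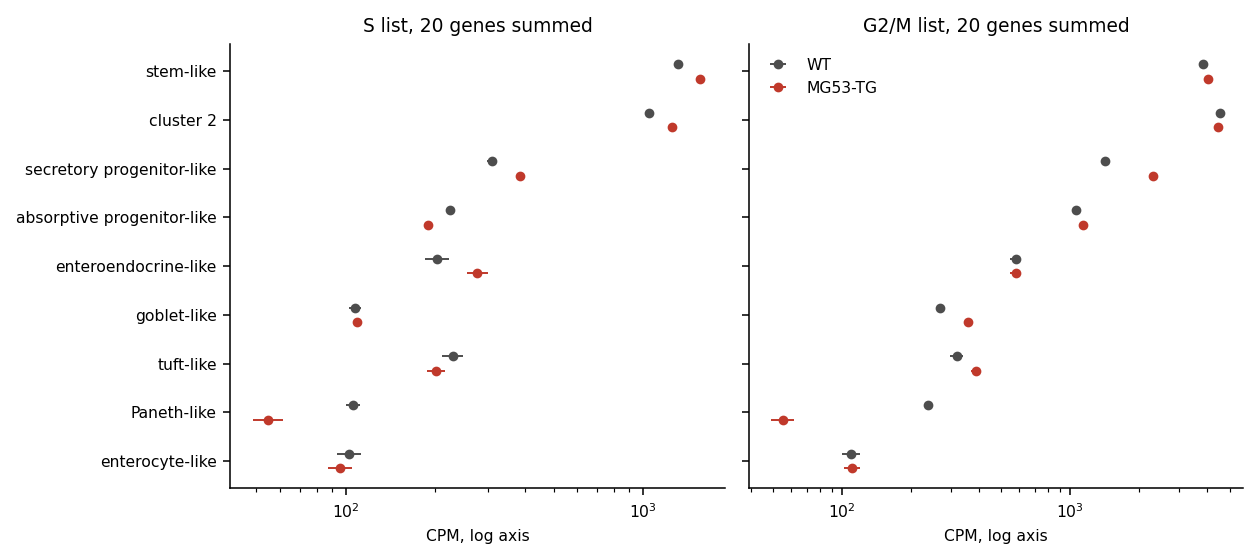
Summed CPM of the 20 S phase members (left) and the 20 G2/M members (right) by group of epithelial cells, on a log axis, for 1 WT and 1 MG53-TG library with exact 95% Poisson intervals. Stem-like cells and cluster 2 stand highest and both progenitor groups follow for G2/M.

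For the G2/M list, progenitors came next. Secretory progenitor-like cells had 1423 CPM (1400.4 to 1446) and 2318 CPM (2287 to 2349) of the G2/M list. Absorptive progenitor-like cells had 1066 CPM (1053 to 1078) and 1138 CPM (1123 to 1155). Mature groups had less of the G2/M list, from 577 and 577 CPM in enteroendocrine-like and 318 and 388 CPM in tuft-like cells down to 109 and 111 CPM in enterocyte-like cells. Paneth-like cells, at 239 and 54.9 CPM, were the lowest of the named epithelial types in MG53-TG but not in WT. The order differed for the S list, of which secretory progenitor-like cells had 309 and 386 CPM, tuft-like cells 229.5 and 202 CPM, enteroendocrine-like cells 202 and 277 CPM and absorptive progenitor-like cells 223 and 189.6 CPM. The bottom of the order was not resolved for the S list in WT, where goblet-like (107 CPM), Paneth-like (106 CPM) and enterocyte-like cells (102 CPM) had overlapping intervals. WT barcodes under 100 UMIs, which hold mostly free RNA, contained 326 CPM of the S list and 834 CPM of the G2/M list. The former is above the WT level of every named epithelial type but stem-like cells, both progenitor groups included, and the latter above the mature groups, and how much of those levels free RNA gave was not tested.

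**Figure D2:**
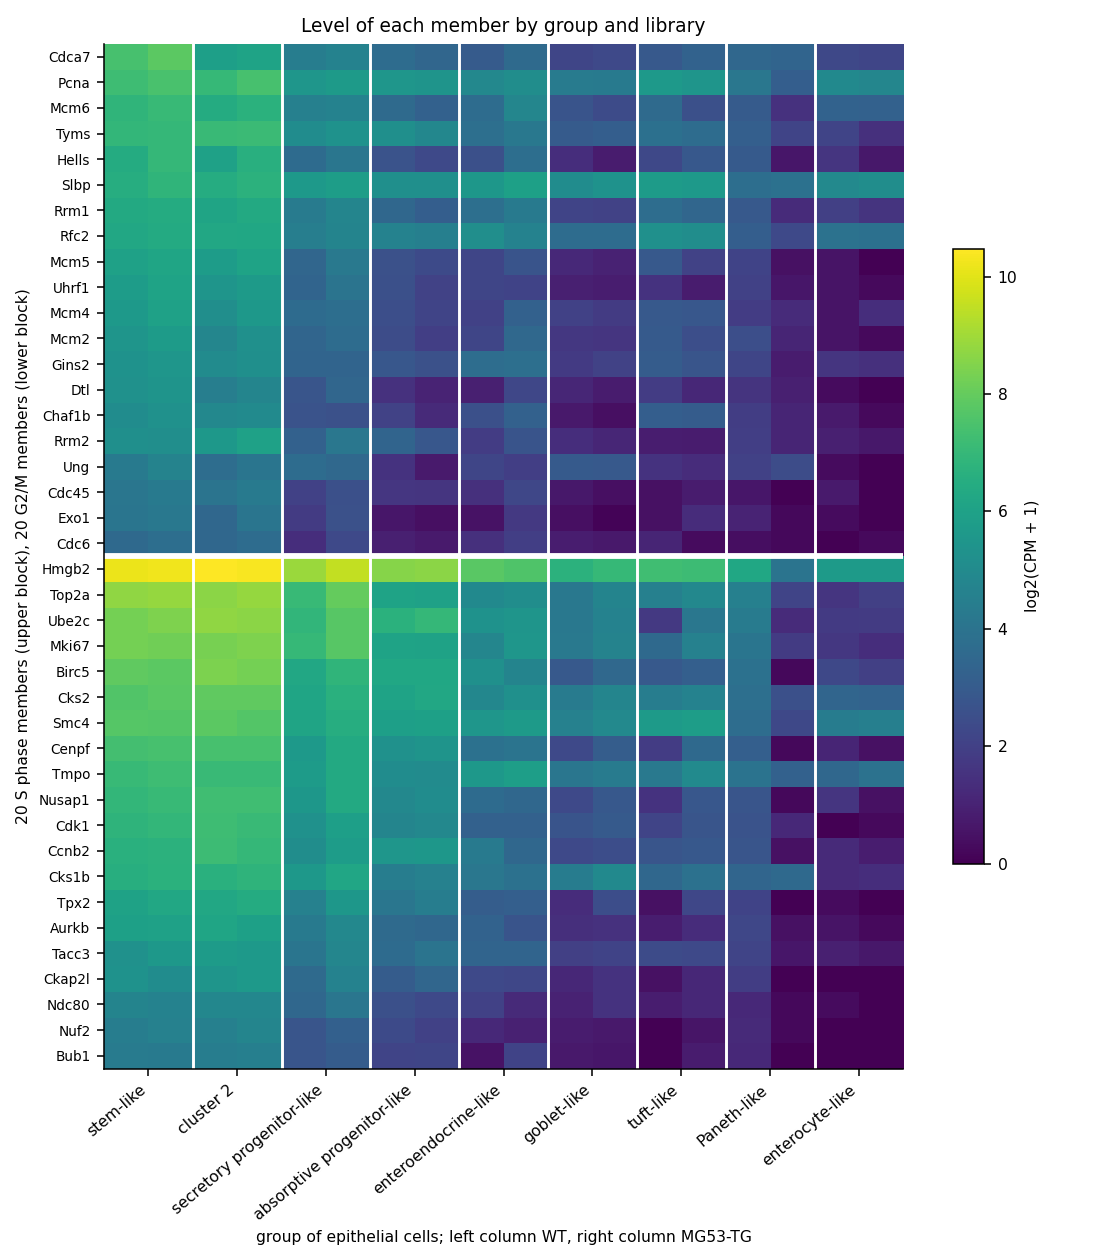
Level of each of the 40 members as log2(CPM + 1) by group of epithelial cells, with a WT and an MG53-TG column for each group. The rows are highest in stem-like cells or cluster 2, and Hmgb2 has the highest stem-like level.

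Sequences before the start of these genes are shown because S phase and G2/M members differed in the motifs they held. Searched on both strands were E2F sites (TTTCCCGC, TTTGGCGC, TTTCGCGC, TTTGCCGC), the cell cycle genes homology region, CHR (TTTGAA), a variant of it, CHR2 (TTCGAA), and the CCAAT box of NF-Y (CCAAT). The 150 bases before the RefSeq start (GRCm38.p6) were read for the 33 members with an entry. For 15 of them these bases touch an annotated exon, among them Cdca7, Dtl, Hells, Cdk1, Cks1b and Ube2c. E2F letters were in 6 of 16 S phase members, Cdc6, Cdca7, Dtl, Hells, Mcm5, Mcm6, and in 1 of 17 G2/M members, Cdk1, against 1.24% of all 32851 windows. CHR was split the other way, with 7 of 17 G2/M members (Cdk1, Ckap2l, Cks1b, Hmgb2, Mki67, Top2a, Ube2c) and 1 of 16 S phase members (Mcm2), against 9.07% of windows. CHR2 was found in Top2a, and in 0.667% of windows. CCAAT was in 12 of 17 G2/M and 9 of 16 S phase members, against 24.5% of windows. The RefSeq start of 1 gene lay 134 bases from the nearest annotated GENCODE start and the others within 100. These are matches of letters and not sites shown to be bound.

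From each list, 3 stretches are printed, those with a motif, the highest stem-like level and no annotated exon, 5′ to 3′ on the gene's strand up to the base before the start, with motifs of either strand in capitals. The G2/M members are Hmgb2 (chr8:57511693-57511842, plus strand), Top2a (chr11:99024190-99024339, minus strand) and Mki67 (chr7:135716380-135716529, minus strand).
Hmgb2: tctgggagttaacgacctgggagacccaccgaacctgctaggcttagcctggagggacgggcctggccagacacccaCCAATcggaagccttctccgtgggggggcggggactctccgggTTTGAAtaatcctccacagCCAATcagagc
Top2a: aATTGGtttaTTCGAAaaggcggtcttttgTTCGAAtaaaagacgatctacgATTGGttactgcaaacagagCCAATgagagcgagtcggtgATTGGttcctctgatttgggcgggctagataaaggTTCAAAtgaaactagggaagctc
Mki67: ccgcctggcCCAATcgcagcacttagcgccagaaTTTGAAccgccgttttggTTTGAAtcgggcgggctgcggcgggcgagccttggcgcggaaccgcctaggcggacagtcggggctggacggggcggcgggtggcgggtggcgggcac
The CHR begins 30 bases before the start in Hmgb2 and 23 in Top2a, while Mki67 has its CHR letters at 116 and 98 bases. Each of the 3 also holds CCAAT, Top2a at 149, 98, 78 and 58 bases.

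The S phase members are Mcm6 (chr1:128359706-128359855, minus strand), Rrm1 (chr7:102441545-102441694, plus strand) and Mcm5 (chr8:75109359-75109508, plus strand).
Mcm6: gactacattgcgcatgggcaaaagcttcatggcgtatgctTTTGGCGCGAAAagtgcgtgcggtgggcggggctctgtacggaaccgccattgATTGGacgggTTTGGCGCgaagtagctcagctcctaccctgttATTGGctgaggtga
Rrm1: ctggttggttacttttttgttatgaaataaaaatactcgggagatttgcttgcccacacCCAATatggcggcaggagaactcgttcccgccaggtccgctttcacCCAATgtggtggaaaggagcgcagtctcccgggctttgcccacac
Mcm5: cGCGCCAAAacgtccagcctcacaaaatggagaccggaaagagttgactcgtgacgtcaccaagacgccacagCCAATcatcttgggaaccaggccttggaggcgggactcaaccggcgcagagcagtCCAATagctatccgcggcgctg
Mcm6 holds E2F letters at 110, 106 and 47 bases before the start, of which the first pair overlap on opposite strands. Mcm5 holds them at 149 bases, and Rrm1 holds CCAAT but none of the E2F letters searched.

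Of the S phase members, Cdca7, which recruits a chromatin remodeller, was the most abundant in stem-like cells, with 171 CPM in WT against 225 CPM in MG53-TG (log2 ratio of MG53-TG over WT 0.39, 0.31 to 0.48). Pcna, the sliding clamp, had 149.6 and 178 CPM (0.25, 0.16 to 0.35). Mcm6, a helicase subunit, had 116 and 134 CPM (0.21, 0.10 to 0.32). All 3 were higher in MG53-TG with intervals above 0. Tyms, which makes thymidylate, had 121 and 125 CPM, and its interval spans 0 (0.05, -0.06 to 0.16). Hells, the remodeller that Cdca7 recruits, had 87.3 and 125 CPM, the highest ratio of the 40 in these cells (0.51, 0.39 to 0.63).

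By role, chromatin and histone supply (Cdca7, Chaf1b, Hells, Slbp, Uhrf1) differed most in stem-like cells, at 438 and 569.6 CPM (0.38, 0.32 to 0.43). The MCM subunits Mcm2, Mcm4, Mcm5 and Mcm6 summed to 272 and 319.7 CPM (0.23, 0.16 to 0.31). Pcna with Rfc2, of the clamp loader, summed to 227 and 263 CPM (0.21, 0.13 to 0.29). Helicase loading and activation (Cdc45, Cdc6, Gins2) and repair (Exo1, Ung) were also above 0. The former stood at 66.7 and 76.6 CPM (0.20, 0.06 to 0.35). The latter stood at 34.0 and 42.0 CPM (0.30, 0.10 to 0.50). Deoxynucleotide supply (Rrm1, Rrm2, Tyms) spanned 0, with 239.9 and 246 CPM (0.04, -0.04 to 0.11), as did Dtl, which directs licensing factors to degradation, with 38.3 and 42.3 CPM (0.15, -0.05 to 0.34).

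Of the G2/M members, Hmgb2, a DNA-bending protein (ENSMUSG00000054717, chromosome 8, 57511907 to 57515999), had 1134 CPM in WT against 1202 CPM in MG53-TG in stem-like cells (0.08, 0.05 to 0.12). Top2a, topoisomerase II alpha, had 428 and 447 CPM (0.06, 0.0049 to 0.12). Ube2c, with which the anaphase-promoting complex marks cyclins, had 315 and 352 CPM (0.16, 0.09 to 0.23). These 3 were slightly higher in MG53-TG. Mki67, the usual stain for cycling cells (ENSMUSG00000031004, chromosome 7, 135689784 to 135716361), had 309 and 294 CPM, with an interval that reaches 0 (-0.07, -0.14 to 0.0018). Birc5, or survivin, had 239 and 230.1 CPM (-0.05, -0.14 to 0.03). Both were on the lower side, unlike most members.

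The mitotic kinase group (Ccnb2, Cdk1, Cks1b, Cks2) summed to 504 and 547 CPM (0.12, 0.07 to 0.17). The spindle group (Ckap2l, Nusap1, Tacc3, Tpx2) summed to 266 and 289.8 CPM (0.13, 0.05 to 0.20), and its members went apart. Tacc3, which stabilises spindle fibres, had 38.5 and 47.1 CPM (0.29, 0.10 to 0.48). Ckap2l, a spindle protein, had 39.7 and 33.5 CPM, the lowest ratio of the 40 (-0.24, -0.45 to -0.04). The other groups lay close to 0. Kinetochore and checkpoint genes (Bub1, Cenpf, Ndc80, Nuf2) had 227 and 236 CPM (0.05, -0.03 to 0.14). The passenger pair Aurkb and Birc5 had 299.8 and 293 CPM (-0.03, -0.10 to 0.04). Chromosome structure (Hmgb2, Mki67, Smc4, Tmpo, Top2a) had 2212 and 2297 CPM (0.05, 0.03 to 0.08).

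Members differed in their log2 ratio of stem-like over tuft-like CPM with both libraries added. Tuft-like cells are 1 mature type, so the ratio describes this pair of types and not all mature cells. Nuf2, which ties kinetochores to microtubules, was the widest, with 21.9 CPM in stem-like and 0.301 CPM in tuft-like cells (6.18, 4.32 to 9.23), from 2 tuft-like UMIs. Aurkb, the kinase of the passenger complex, had 61.6 CPM in stem-like and 1.21 CPM in tuft-like cells (5.68, 4.69 to 6.89). Uhrf1, a reader of hemimethylated DNA, had 58.8 CPM in stem-like and 1.21 CPM in tuft-like cells (5.61, 4.63 to 6.82). Rrm2, the regulated subunit of ribonucleotide reductase, and Bub1, a checkpoint kinase, completed the 5 widest. The former had 35.8 CPM in stem-like and 0.753 CPM in tuft-like cells (5.57, 4.34 to 7.20). The latter had 19.1 CPM in stem-like and 0.452 CPM in tuft-like cells (5.40, 3.84 to 7.68). Intervals of these 5 overlap, so their order was not resolved.

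At the other end, Slbp, which binds histone mRNA, had the narrowest ratio, with 101 CPM in stem-like and 50.3 CPM in tuft-like cells (1.01, 0.84 to 1.18). Rfc2 had 80.0 CPM in stem-like and 35.3 CPM in tuft-like cells (1.18, 0.98 to 1.38). Pcna had 160.4 CPM in stem-like and 44.9 CPM in tuft-like cells (1.84, 1.67 to 2.01). Smc4, of condensin, was the single G2/M member among the 5 narrowest, with 206 CPM in stem-like and 54.4 CPM in tuft-like cells (1.92, 1.77 to 2.08). Chaf1b, of the histone chaperone that follows the fork, had 35.4 CPM in stem-like and 7.38 CPM in tuft-like cells (2.26, 1.84 to 2.71). For Chaf1b and Rfc2 tuft-like cells were the type with the second-highest level, and the lowest levels were 0.418 CPM for Chaf1b in enterocyte-like cells and 6.65 CPM for Rfc2 in Paneth-like cells.

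Over all epithelial cells the program was lower in the MG53-TG library. The S list had 419.9 CPM (416 to 424) and 367 CPM (363 to 371), a log2 ratio of -0.19 (-0.21 to -0.17). The G2/M list had 1483 CPM (1476 to 1490.2) and 1281 CPM (1274 to 1289), a log2 ratio of -0.21 (-0.22 to -0.20). Of the 40 members, 38 were below 0, where 35.5% of all genes were. The median of the members was -0.23 against 0.09 over the 14657 genes with at least 30 UMIs. Lower by 1.2-fold or more were 15 members, 8 of S phase and 7 of G2/M, where 9.70% of all genes were, and 0 were higher, where 24.1% of all genes were. The count of lower members moved with the scaling and the filter, and was 25 with median-of-ratios scaling, 29 with a mitochondrial limit of 50% and 23 without Paneth-like cells. It was 10 with a minimum of 500 UMIs, 10 without cluster 2 and 0 without goblet-like cells. The share of all genes was not counted under these settings, and median-of-ratios scaling lowers the ratio of every gene alike. Without cluster 2 the G2/M ratio was -0.069. Stress genes also differed in the epithelial sum (372 and 491 CPM), and their part in these values was not tested.

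Aurkb had the lowest ratio of the epithelial sum, with 21.1 CPM in WT against 15.6 CPM in MG53-TG (-0.44, -0.53 to -0.34). Tyms had 45.6 and 34.0 CPM (-0.42, -0.49 to -0.36). Birc5 had 96.9 and 72.2 CPM (-0.42, -0.47 to -0.38). Chaf1b and Bub1 were low in level as well. Chaf1b had 9.56 and 7.13 CPM (-0.42, -0.57 to -0.28). Bub1 had 6.37 and 4.88 CPM (-0.39, -0.56 to -0.21). Mki67 stood nearer the middle of the members, at 109 and 95.1 CPM (-0.19, -0.23 to -0.15).

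The highest ratio was that of Slbp, with 47.2 and 50.7 CPM (0.10, 0.05 to 0.16). Cks1b, a small partner of cyclin-dependent kinases, had 37.6 and 40.0 CPM (0.09, 0.02 to 0.15). These were the 2 members above 0. Ung, a uracil glycosylase, had 7.10 and 7.03 CPM (-0.02, -0.17 to 0.14). Tpx2, which activates Aurora A, had 23.8 and 23.3 CPM (-0.03, -0.11 to 0.06). Hells had 22.2 and 21.3 CPM (-0.06, -0.15 to 0.03), and the intervals of these last 3 span 0.

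**Figure D3:**
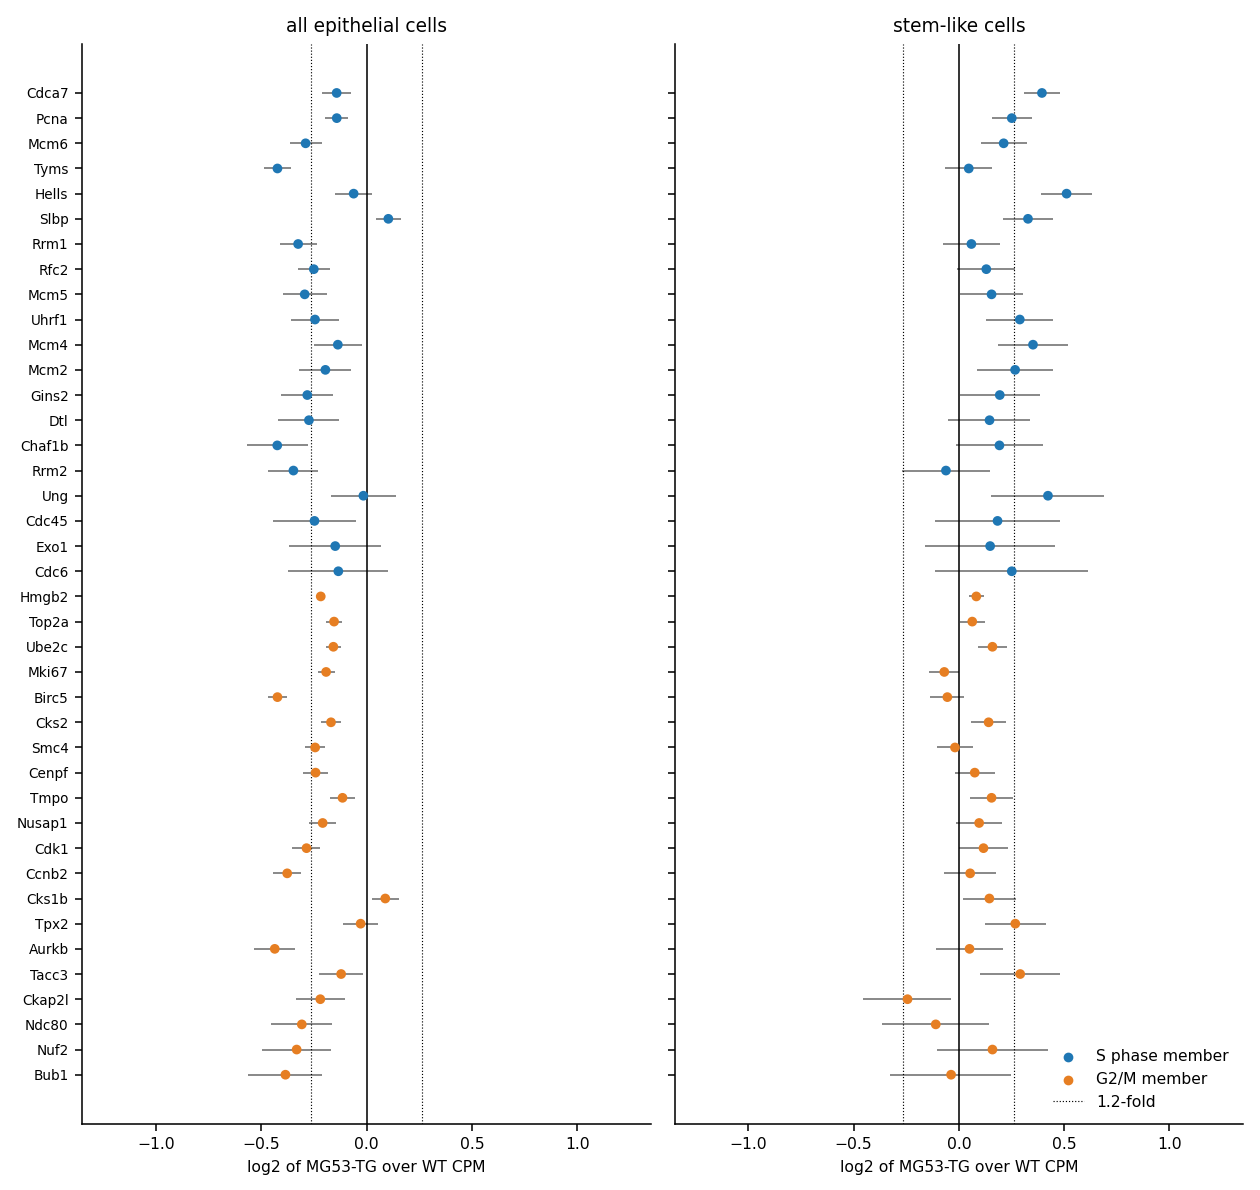
Log2 ratio of MG53-TG over WT CPM of each member in all epithelial cells and in stem-like cells, with exact 95% intervals for counting error. In the epithelial sum 38 of 40 members are below 0 (all genes 35.5%). In stem-like cells 33 of 40 are above it, where 44.8% of all genes are below.

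Within stem-like cells the direction turned, and 33 of 40 members were above 0, where 44.8% of all genes were below it. The median of the members was 0.15 against 0.03 over 11100 genes. Higher by 1.2-fold were 9 members (all genes 15.2%), 7 of S phase and 2 of G2/M, namely Cdca7, Hells, Mcm2, Mcm4, Slbp, Tacc3, Tpx2, Uhrf1 and Ung, and 0 were lower (all genes 11.6%). The S list differed by 0.24 (0.21 to 0.28) and the G2/M list by 0.07 (0.05 to 0.09). The G2/M value did not keep its sign, at -0.00037 with a minimum of 3000 UMIs and -0.012 with each library clustered on its own.

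Beside Hells and Cdca7, the 5 highest ratios in stem-like cells were those of Ung, Mcm4 and Slbp. Ung had 18.4 and 24.7 CPM (0.42, 0.15 to 0.69). Mcm4 had 49.2 and 62.8 CPM (0.35, 0.19 to 0.52). Slbp had 92.2 and 116 CPM (0.33, 0.21 to 0.45). Near the low end, Ndc80, a kinetochore protein, and Rrm2 had intervals that span 0. Ndc80 had 25.6 and 23.8 CPM (-0.11, -0.36 to 0.14). Rrm2 had 36.4 and 34.9 CPM (-0.06, -0.27 to 0.15). Stem markers moved with the S list, as 13 of 15 were higher in MG53-TG stem-like cells, where 44.8% of all genes were below 0, Lgr5 with 14.5 and 39.3 CPM, and their part in it was not tested.

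In cluster 2 the lists went apart. Its S list differed by 0.26 (0.21 to 0.30), with 19 of 20 members above 0, where 43.6% of all genes were below it. Hells had 63.7 and 95.3 CPM (0.58, 0.42 to 0.75). Pcna had 130.1 and 172 CPM (0.40, 0.29 to 0.52). Its G2/M list differed by -0.02 (-0.05 to -0.003), with 11 of 20 above 0, near the share of all genes. Of the 20, 13 were below the median of all genes (0.04), which is 0 under median-of-ratios scaling. Past 1.2-fold, 9 members were higher (all genes 17.2%), all of S phase, and 0 were lower (all genes 12.2%).

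Secretory progenitor-like cells held more of the G2/M list in MG53-TG, by 0.70 (0.67 to 0.73), and more of the S list, by 0.32 (0.25 to 0.39), although the S list of free RNA stood above both progenitor groups in WT and its part was not tested. A minority of cells, those with at least 3 member UMIs per 1354, held most of the member UMIs. They were 78 of 657 WT cells with 75.8% of member UMIs, and 104 of 517 MG53-TG cells with 88.1%. All 20 G2/M members and 11 of 20 S phase members were higher by 1.2-fold (all genes 19.4%), and 0 were lower (all genes 10.7%). Top2a had 131 and 257 CPM (0.97, 0.88 to 1.07). Ube2c had 119 and 216 CPM (0.86, 0.76 to 0.96). Mki67 had 127 and 215 CPM (0.75, 0.65 to 0.85). The group joins 2 clusters, and the G2/M list was higher in both. Cluster 13, led by the Notch ligand Dll1, had 2110.2 and 3608 CPM (0.77, 0.74 to 0.81) from 298 and 260 cells. Cluster 12 had 749 and 1024 CPM (0.45, 0.39 to 0.51) from 359 and 257 cells. For the S list, cluster 13 differed by 0.44 (0.36 to 0.53), while cluster 12 spanned 0 (0.05, -0.07 to 0.17).

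Absorptive progenitor-like cells went the other way for replication genes. There 14 of the 19 S phase members with enough UMIs were lower by 1.2-fold, and the S list differed by -0.24 (-0.30 to -0.17), with the same limit from free RNA. The G2/M list differed by 0.10 (0.07 to 0.12). The group joins cluster 1 (809 and 353 cells) and cluster 7 (383 and 310 cells), whose proportion differed between libraries. Its ratios were not split by cluster. Over both lists, 16 members were lower (all genes 13.0%) and 4 higher (all genes 16.0%). The higher ones were the ubiquitin conjugase gene Ube2c and the spindle genes Tpx2, Tacc3 and Ckap2l. Ube2c had 103 and 127 CPM (0.30, 0.22 to 0.38). The G2/M members that were lower, Nuf2 and Ndc80, belong to the same kinetochore complex, and the former had 4.08 and 3.03 CPM (-0.43, -0.94 to 0.07). Among S phase members Hells had 5.33 and 3.91 CPM (-0.45, -0.90 to -0.01), on the other side of 0 from its stem-like ratio.

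Goblet-like cells had a low level of both lists, with 269.7 and 358 CPM of the G2/M list (0.41, 0.36 to 0.46) and 107 and 109 CPM of the S list (0.03, -0.06 to 0.11). Of 19 G2/M members with enough UMIs, 15 were higher by 1.2-fold. Over both lists, 16 were higher (all genes 15.6%) and 5 lower (all genes 8.93%). Gins2, of the active helicase, was the S phase member among the higher ones. Hells, Dtl, Rrm2, Mcm5 and Mcm6 were the lower ones. Few cells, those with at least 3 member UMIs per 1354, weighed on these sums. They were 10 of 1228 WT cells with 22.7% of member UMIs, and 23 of 1575 MG53-TG cells with 35.8%. The larger share lay in MG53-TG, and the ratios without these cells were not computed. Hmgb2 had 104 and 127 CPM (0.29, 0.21 to 0.38), and Top2a had 17.5 and 25.5 CPM (0.54, 0.34 to 0.74).

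Enteroendocrine-like cells had close sums of the G2/M list (log2 ratio 0.0021, -0.11 to 0.12) and a higher sum of the S list, 202 and 277 CPM (0.45, 0.28 to 0.63). The MCM subunits were part of it, with 22.2 and 51.9 CPM (1.23, 0.73 to 1.74). Tuft-like cells had 229.5 and 202 CPM of the S list (-0.19, -0.34 to -0.03) and a G2/M ratio of 0.28 (0.16 to 0.41). A few cells above the same rate weighed on both of these groups too. In enteroendocrine-like cells they were 7 of 285 WT cells with 54.2% of member UMIs, and 7 of 185 MG53-TG cells with 51.9%. In tuft-like cells they were 1 of 231 WT cells with 10.4% of member UMIs, and 5 of 285 MG53-TG cells with 29.3%. In each of these 2 groups 14 of the 40 members had under 30 UMIs each.

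Paneth-like cells had 239 and 54.9 CPM of the G2/M list and 106 and 54.7 CPM of the S list (-0.95, -1.14 to -0.77), and for the former the ratio was -2.12 (-2.30 to -1.95). Of 33 members with enough UMIs, 29 were lower (all genes 28.8%) and 1, Ung, was higher (all genes 26.4%). The WT level rested on few cells, as 10 of 258 WT Paneth-like cells held 49.0% of the 4239 member UMIs of that group. Their median depth was 48698.5 UMIs, against 47486.5 over all WT Paneth-like cells, and whether they were doublets was not tested. In MG53-TG, Tpx2 and Ckap2l had no UMI in this group, compared with 41 and 34 UMIs in WT.

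The makeup of the libraries differed beside these levels. Stem-like cells gave 13.3% and 9.59% of epithelial UMIs, cluster 2 gave 10.5% and 6.16%, and goblet-like cells gave 15.8% and 30.4%. Of member UMIs, stem-like cells held 36.0% and 32.4%, and cluster 2 held 30.8% and 21.3%. Secretory progenitor-like cells held 9.16% of member UMIs in WT against 17.5% in MG53-TG, at 10.1% and 10.6% of all epithelial UMIs.

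When the 12 parts of the epithelium (named types and single unnamed clusters) were weighted by their WT shares of UMIs, the S list of MG53-TG came to 468 CPM, a log2 ratio to WT of 0.16 (0.14 to 0.18, normal approximation). This ratio was 0.093 with doublets kept and 0.096 with clusters made with all genes. The G2/M list came to 1601 CPM, a ratio of 0.11 (0.10 to 0.12), which was 0.044 without cluster 13. At fixed shares both lists were above WT. Without goblet-like cells, a choice made after the data had been seen, the epithelial ratios were 0.0041 for S and -0.022 for G2/M, and 0 members were lower by 1.2-fold in place of 15. The share of all genes that were lower was not counted without goblet-like cells. At WT shares chromatin and histone supply had the highest ratio of the roles, 0.26, and the passenger pair the lowest, -0.03 (-0.07 to 0.01). This order depended on the weights, as seen in an alternative added after the data had been seen. At MG53-TG shares the S list had a ratio of 0.14 and the G2/M list 0.17, the spindle group was highest at 0.28, chromatin and histone supply had 0.25 and the passenger pair 0.03.

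**Figure D4:**
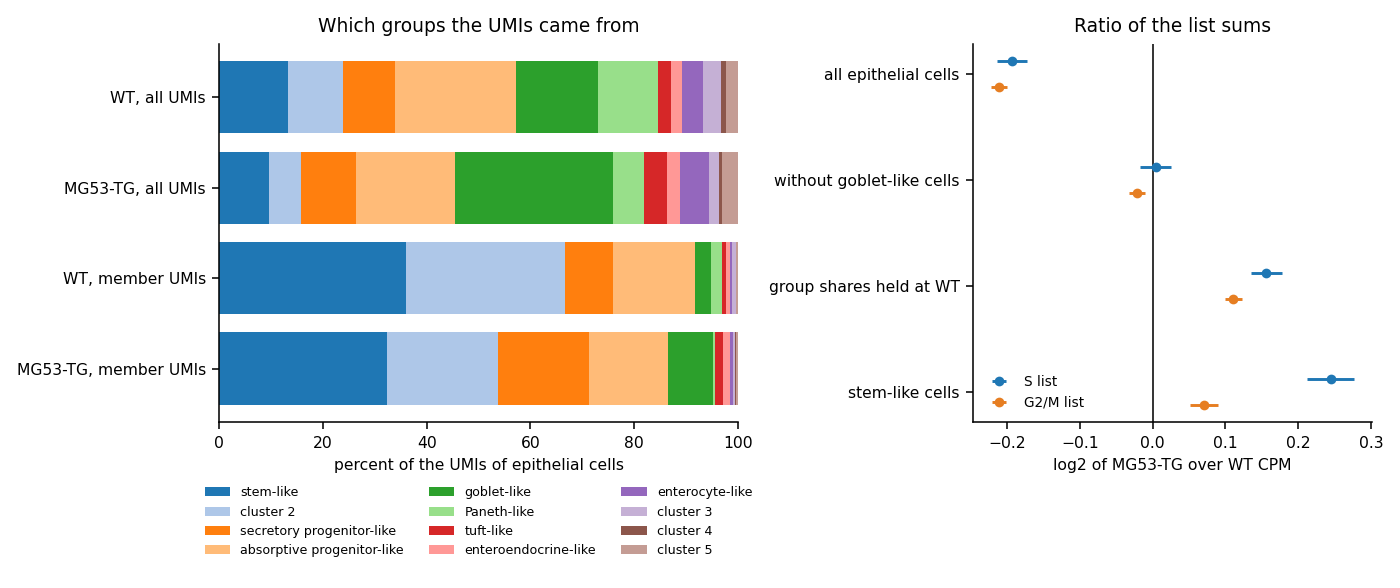
Left, share of all UMIs and of member UMIs of epithelial cells from each group, in percent, for each library; right, log2 ratio of MG53-TG over WT for the S and G2/M list sums, with 95% intervals for counting error. The ratios of the whole epithelium are below 0 and those at WT shares are above it.

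In single cells the program was concentrated in few cells. Each cell was thinned to 1354 UMIs, and a cell counted as carrying the program with 3 or more member UMIs, a limit set after the data had been seen. This held for 19.5% (18.5 to 20.5) in WT and 15.2% (14.1 to 16.2) in MG53-TG, with 727 and 473 cells within 1 UMI of the limit. Without thinning, the shares at the same rate of member UMIs were 17.7% and 14.0%. Stem-like cells had 71.4% (67.7 to 74.9) in WT and 77.7% (72.7 to 82.1) in MG53-TG, with intervals that overlap. Secretory progenitor-like cells had 14.2% (11.6 to 17.1) in WT and 22.2% (18.7 to 26.1) in MG53-TG, with intervals that do not. These intervals take the cells of 1 library each as units, so their overlap or lack of it says nothing about spread between mice. Enterocyte-like cells, which have left the cycle, had 0.391% and 0.833%. Their median depths were 17025 and 21522 UMIs, against 20731 and 24632 in stem-like cells. The background planned was that of tuft-like cells (6.93% and 4.56%) and Paneth-like cells (4.26% and 0.752%). Enteroendocrine-like cells had 4.91% and 5.41%, and goblet-like cells 2.12% and 2.22%.

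A Mki67 UMI was seen in 23.5% and 20.4% of stem-like cells with 1354 UMIs per cell and in 48.8% and 47.6% with 5000. In secretory progenitor-like cells the shares were 8.22% and 13.2% with 1354 UMIs, where enterocyte-like cells had 0.391% and 0.417%. Tuft-like cells had 0.866% and 1.40%, and Paneth-like cells 1.94% and 0%.

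The balance of the lists also differed between cells. At 5000 UMIs per cell, which left out 5 and 7 stem-like cells, the median G2/M share of member UMIs was 77.8% and 71.4% over 436 and 231 cells that carried the program. Cells with a G2/M share under 20%, mostly of S phase, numbered 9 in WT (2.06%, 0.948 to 3.88) and 16 in MG53-TG (6.93%, 4.01 to 11.0). In cluster 2 each library had 1 such cell, and the median shares were 86.5% and 85.1%.

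**Figure D5:**
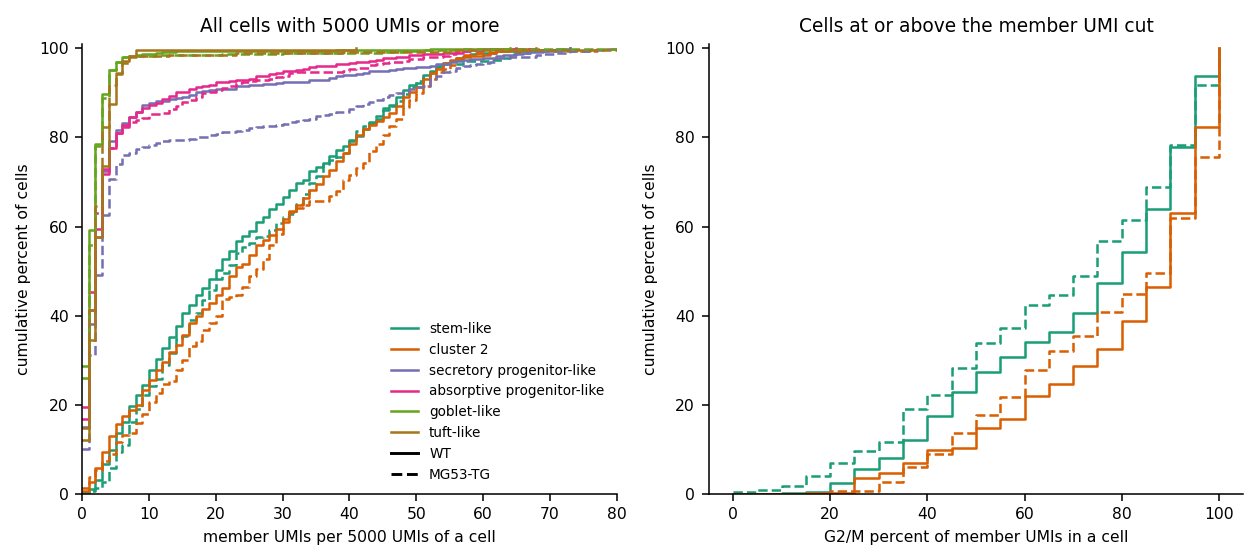
Cumulative percent of cells by member UMIs among 5000 UMIs of a cell (left) and by the G2/M percent of member UMIs in cells that carry the program (right), for each library. Most cells of mature groups have few member UMIs, and stem-like cells with a low G2/M percent are more frequent in MG53-TG.

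Other genes of the cycle were taken from lists, those of other S phase and G2/M genes by phase and the rest by function. Of 23 other S phase genes, 5 were lower and 0 higher by 1.2-fold in the epithelial sum (all genes 9.70% and 24.1%), and 0 lower and 6 higher in stem-like cells (all genes 11.6% and 15.2%). Blm, a helicase of recombination repair, had 16.3 and 23.4 CPM in stem-like cells (0.52, 0.24 to 0.80). Pola1, of polymerase alpha, had 34.6 and 44.3 CPM (0.35, 0.16 to 0.55). Brip1, also a helicase, and Cenpu, of the inner kinetochore, were at the low end with ratios of -0.12 and -0.17, and both intervals span 0. Of 35 other G2/M genes, 5 were lower and 0 higher in the epithelial sum, and 0 lower and 4 higher in stem-like cells, against the same shares of all genes, so that the stem-like counts of this list were not above those of genes at large. Their ends were Cdca3 (-0.08, -0.18 to 0.02), Ncapd2 (-0.05, -0.25 to 0.15), Gtse1 (0.45, 0.01 to 0.89) and Pimreg (0.49, -0.36 to 1.33). Pimreg had only 28 and 24 UMIs.

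Of 14 genes of origin recognition and licensing, 3 were higher and 1 lower in stem-like cells, near the 15.2% and 11.6% of all genes. Gins1, of the active helicase, had 11.5 and 16.3 CPM (0.51, 0.17 to 0.85) and its partner Gins3 4.39 and 6.96 CPM (0.66, 0.13 to 1.2). Orc5, of the origin recognition complex, had 12.3 and 9.97 CPM (-0.30, -0.69 to 0.08), and Mcm10 a ratio of 0.01. Of 16 genes of the replicative polymerases, 3 were higher and 0 lower, the former near the share of all genes, with Pole2 (0.54) and Pola2 (0.29) at one end and Pold4 (-0.18) and Prim2 (-0.10) at the other.

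Of 8 cyclins and kinases, most of which govern entry into the cycle in G1 and with the later Ccna2 among them, 2 were higher and 0 lower in stem-like cells (all genes 15.2% and 11.6%). Ccnd2, cyclin D2, had 411 and 571 CPM (0.47, 0.42 to 0.53). Its kinase Cdk6 had 79.7 and 115 CPM (0.52, 0.40 to 0.65). Ccne1 and Cdk2, which act together later in G1, had ratios of 0.04 and -0.21, with intervals that span 0. Of 18 E2F and DREAM regulators, 2 were higher and 2 lower, no more than the shares of all genes. The activator E2f3 had 17.9 and 24.1 CPM (0.43, 0.16 to 0.70) and the activator E2f2 22.6 and 17.2 CPM (-0.40, -0.69 to -0.11). E2f5 (0.32) and the pocket protein gene Rbl2 (-0.27) were the next ends, with intervals that span 0.

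Inhibitors of cyclin-dependent kinases were higher over the epithelium in 5 of 7 cases, where 24.1% of all genes were, beside the larger goblet-like share and the higher stress genes of the MG53-TG library, whose part was not tested. In stem-like cells 2 were higher and 2 lower of 5 with enough UMIs (all genes 15.2% and 11.6%). Cdkn1a, or p21, had 145 and 209.7 CPM in epithelial cells (0.53, 0.50 to 0.56) and 12.7 and 16.3 CPM in stem-like cells (0.37, 0.04 to 0.69). Cdkn1b, or p27, had 61.4 and 75.4 CPM in stem-like cells (0.30, 0.15 to 0.44). The INK4 genes Cdkn2c and Cdkn2d were lower there. Cdkn2c had 9.14 and 5.68 CPM (-0.69, -1.19 to -0.20). Cdkn2d had 14.2 and 9.04 CPM (-0.65, -1.04 to -0.26).

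Genes outside the 40 whose level followed their sum were sought over 16 points, 8 named types in both libraries, by Pearson's r of log2(CPM + 1). The points share libraries, and r is a description. Closest were Smc2 (0.99), Incenp (0.99), Cdca8 (0.98), Ruvbl2 (0.98), Lsm2 (0.97), then Npm1 (0.97), Rfc4 (0.97), Cdca3 (0.97), Lsm5 (0.97) and Hist1h1b (0.97). Smc2 is the condensin partner of Smc4, and Incenp and Cdca8 belong to the chromosomal passenger complex. Of the members themselves, Cks2 (0.99) and Hmgb2 (0.99) lay nearest to the sum that includes them and Ung (0.66) farthest from it.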

How the data were processed

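The authors deposited UMI counts per gene and barcode, unscaled, for 2 libraries made with the 10x Genomics 3′ kit, version 3. They name mm10 and Seurat in their processing notes. Cell Ranger 4 made the WT table, with every barcode, and Cell Ranger 6.0.1 the MG53-TG table, without barcodes under 500 UMIs, per the file headers and values. Use of strand and of reads with several matches is not given in the sources used here, so close copies such as Cks1b and Cks2 are uncertain.

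Kept were barcodes with at least 1354 UMIs, 200 genes and at most 25% mitochondrial UMIs (7401 and 5153). The Scrublet threshold marked 0.0135% and 0.0388% and so did not work, and the highest scores were removed at 0.8% per 1000 cells (438 and 212). Cells were clustered with scanpy 1.11.5 (2000 variable genes, 30 components, 15 neighbours, Leiden resolution 1, seed 0) without 564 cell cycle genes, giving 25 clusters, 20 of them epithelial. A cluster was called X-like from at least 3 listed markers, each in 10% of its cells at 1.5 times the level elsewhere. A rule set after clusters were seen left the one led by Fabp6 unnamed, and names may differ from the study's.

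UMIs were summed per group and library. Intervals were Poisson, Clopper-Pearson or conditional binomial (scipy 1.17.1). Genes with 30 UMIs over both libraries entered counts past 1.2-fold. Calculations were tested on simulated data. Members and lists were chosen with earlier results of these data known. Named were the 5 members of each list with the highest stem-like level, the 5 at each end of the epithelial and stem-like ratios and of stem-like over tuft-like level, the 2 genes at each end of each pathway list, and the 10 genes most alike. Other members were named to stand for a role or a group, after their values had been seen. Alternatives covered scaling, filters, doublets and clustering, and some were added after the data were seen.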

Additional observations from a re-analysis of the deposited data

Results flagged for a closer look

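Member UMIs were found outside the cells compared. WT barcodes under 100 UMIs, with 5978198 UMIs in all, held 326 CPM of the S list and 834 CPM of the G2/M list. The MG53-TG table held no such barcodes. The 3755 WT barcodes over the mitochondrial limit held 83.2 CPM of the S list and 149.9 CPM of the G2/M list. The 4402 such MG53-TG barcodes held 70.3 and 136 CPM. With mitochondrial UMIs left out of the total, these levels were 157 and 283 CPM for the WT barcodes and 130.0 and 252 CPM for those of MG53-TG. Epithelial cells stood above this on the same scale, at 445 and 1573 CPM in the WT library and 388 and 1355 CPM in the other.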

How the results depend on the processing

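All values here are log2 ratios of MG53-TG over WT unless called counts, and the cause of a change was not tested. The share of all genes was not counted beside the counts of this section. Median-of-ratios scaling gave -0.28 (S) and -0.30 (G2/M) in epithelial cells, 0.042 for G2/M in stem-like cells, 0.12 and 0.072 at WT shares, and counts of 25 epithelial and 1 stem-like members lower by 1.2-fold. The mean of single-cell CPM gave -0.24 for S in epithelial cells and 0.18 for G2/M at WT shares. A mitochondrial limit of 50% gave -0.27 and -0.31 in epithelial cells, 0.12 and 0.046 at WT shares, and a count of 29 epithelial members. A minimum of 500 UMIs gave -0.17 and -0.16 in epithelial cells, 0.046 for G2/M in stem-like cells and 0.19 for G2/M at WT shares. A minimum of 3000 turned G2/M in stem-like cells to -0.00037, with a count of 1, and gave 0.13 for S at WT shares. With doublets kept, G2/M in stem-like cells was 0.049 and S at WT shares 0.093. Clusters made with all genes gave 0.20 and 0.035 in stem-like cells and 0.096 and 0.056 at WT shares. Each library clustered on its own turned G2/M in stem-like cells to -0.012, with a count of 1, and was not run at WT shares, since unnamed clusters have no partner. At WT shares, resolution 0.5 gave 0.16 for G2/M, resolution 2 gave 0.13 and 0.093, and leaving out Hmgb2 gave 0.12 for G2/M.

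The following were chosen after seeing the data. Without Paneth-like cells, epithelial ratios were -0.25 and -0.27 and the count 23. Without cluster 2 they were -0.16 and -0.069, and at WT shares 0.12 and 0.17. Without goblet-like cells S turned to 0.0041, G2/M was -0.022 and the count 0. Stem-like cells and cluster 2 together gave 0.018 for G2/M. At WT shares, G2/M was 0.044 without cluster 13 and 0.16 with each cluster as a part, and weighting by MG53-TG shares in place of WT shares gave 0.17 (S 0.14). Of 117 alternatives computed, 70 stayed near the reported value, 44 moved and 3 turned direction. Some of the 70 could hardly move. Epithelial sums depend little on clustering, and stayed at -0.19 and -0.21 with a count of 15 under each new clustering. All 40 members passed the minimum of 30 UMIs there, so lifting it changed nothing. The limit for counts was wide, as 10 in place of 15 was taken as near. No paired analysis was possible because each genotype had 1 library. Depth limits rare members in mature groups, where 30 of 40 in enterocyte-like cells had under 30 UMIs.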
